A study of Homo sapiens with 12 samples.

Results

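Base excision repair and single-strand break repair were described in PC9 cells through 9 genes whose products carry out their central steps: PARP1, PARP2, XRCC1, LIG3, LIG1, POLB, APTX, APEX1 and FEN1. The 9 genes were chosen by name, for their function, out of 62754 genes in the count table, with earlier results of these data known. All 9 were among the 17115 genes with enough reads to be tested. PC9 is a human lung adenocarcinoma line with an activating EGFR mutation, and erlotinib is an inhibitor of the EGFR kinase. RNA-seq was done on 12 libraries of a subclonal PC9 line in 4 groups of 3 cultures that had been split from a common flask and kept apart, so that p-values measure the spread between such cultures. The wild-type (TDP1 WT) line was sampled without drug (untreated WT), as drug-tolerant cells (DTC, erlotinib at 1 µM for 7 days) and as drug-tolerant expanded cells (DTEC, the same dose for 28 days). The TDP1 knockout (KO) was sampled without drug and is 1 line, labelled KO2. An effect of the knockout thus cannot be told apart from other differences between this line and the wild-type line. TDP1 encodes the enzyme that removes trapped topoisomerase I peptides from DNA 3′ ends, and the nick it leaves is closed by single-strand break repair.

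As background, base excision repair starts when a DNA glycosylase removes a damaged base and APEX1 cuts the backbone at the abasic site. PARP1 and PARP2 bind the resulting break and build poly(ADP-ribose) chains, and XRCC1 is the scaffold that these chains recruit. In the short-patch route POLB fills a single nucleotide and LIG3, bound to XRCC1, seals the nick. In the long-patch route a replicative polymerase displaces a flap, FEN1 cuts it off and LIG1 seals the nick. FEN1 and LIG1 also mature Okazaki fragments during DNA replication, and APTX removes AMP left on DNA ends by an abortive ligation.

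Positions of the genes, all protein-coding, are those of GENCODE 29 on GRCh38. PARP1 (ENSG00000143799) spans 226360691 to 226408079 on the minus strand of chromosome 1, and PARP2 (ENSG00000129484) spans 20343582 to 20357905 on the plus strand of chromosome 14. APEX1 (ENSG00000100823) lies on the same strand of chromosome 14 at 20455191 to 20457772. XRCC1 (ENSG00000073050) and LIG1 (ENSG00000105486) are both on the minus strand of chromosome 19, at 43543040 to 43580473 and 48115445 to 48170603. LIG3 (ENSG00000005156) is on the plus strand of chromosome 17 at 34980494 to 35009743, APTX (ENSG00000137074) on the minus strand of chromosome 9 at 32972606 to 33025168, and FEN1 (ENSG00000168496) on the plus strand of chromosome 11 at 61792637 to 61797244. FEN1 shares 4265 bp with the annotated span of FADS2 on the same strand, and LIG3 shares 3754 bp with RFFL on the opposite strand. FADS2 had a mean of 1832 counts per library against 3986 for FEN1, and RFFL had 609 against 1190 for LIG3. The sequencing was stranded, but the strand setting used in counting is not given in the sources used here. Whether reads of LIG3 and RFFL were told apart is thus not known. FEN1 and FADS2 lie on the same strand, so a strand setting would not separate them. These overlaps are of whole gene spans, introns included, so a shared span need not mean shared reads. How many reads were shared was not measured. Deposited counts were whole numbers in all 12 libraries for FEN1, in 8 for APTX, 6 for POLB, 3 for LIG1 and 0 for LIG3. Which features shared the reads behind the fractions is not given.

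Promoters of 8 of the 9 genes, 250 bases before to 50 after the transcription start in RefSeq on GRCh38.p14, were searched on both strands for 4 short motifs linked to cell-cycle or basal transcription. They are shown because several of the 9 genes changed in the same comparisons as replication genes. An E2F motif (TTTCCCGC, TTTCGCGC, TTTGCCGC or TTTGGCGC) was present in 1 of the 8 promoters, that of LIG1, and in 3.33% of all 27305 promoters searched. Of the S phase genes used for comparison, 8 of the 10 with a promoter sequence held it, as did 2 of the 10 such mitosis genes. A CHR motif (TTTGAA or TTCGAA) was present in the promoters of PARP2 and XRCC1 and in 16.6% of all promoters. A CCAAT box was present in those of XRCC1 and APEX1 and in 35.7% of all promoters. A GC box (GGGCGG) was present in 6 of the 8 and in 44.6% of all promoters. The FEN1 promoter held none of the 4. Of the same 10 S phase promoters, 1 held a CHR motif, 7 a CCAAT box and 6 a GC box. Of the 10 mitosis promoters, 7 held a CHR motif, 10 a CCAAT box and 9 a GC box. The part of these motifs in the changes of the 9 genes was not tested. In LIG1 the E2F motif and a GC box overlapped. The 30 bases around a match, 5′ to 3′ along the gene's strand with the match in capitals, are given for 6 of these genes, at chr19:48170440-48170469 for LIG1, chr19:43575577-43575606 for XRCC1, chr1:226408162-226408191 for PARP1, chr14:20343620-20343649 for PARP2, chr14:20455127-20455156 for APEX1 and chr17:34980442-34980471 for LIG3.
LIG1, E2F: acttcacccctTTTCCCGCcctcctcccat
XRCC1, CHR: ggcgcgccggggTTTGAAaggcccgagcct
PARP2, CHR: atgacgtcagcgTTCGAAttccatggcggc
APEX1, CCAAT box: gtgtcagacagaCCAATcacgcgcattctt
PARP1, GC box read on the other strand: gcccgggaaactCCGCCCcccggccggcag
LIG3, GC box: cgtggcagacggGGGCGGggaccggtcgcg
A match is a description of the letters in the window and not evidence of binding.

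The libraries held 25572691 to 38373679 estimated counts each. Levels are CPM, counts scaled to a common library total by the TMM method, and a gene was called changed at an adjusted p under 0.05 in edgeR's quasi-likelihood test over all 17115 genes. Calls were frequent in the drug comparisons: 67.3% of all tested genes were called in DTC against untreated WT (34% higher, 33.3% lower), 52.3% in DTEC against untreated WT (26% higher, 26.3% lower) and 55.4% in DTEC against DTC (28.8% higher, 26.6% lower). In KO against untreated WT 4.31% were called (2.76% higher, 1.55% lower). With total counts as the scale, the median log2 fold change of all genes shifted by 0.35 in DTC, by 0.17 in DTEC and by -0.19 in DTEC against DTC. Higher genes then made up 68.4% of calls in DTC (50.5% with TMM), 63.7% in DTEC (49.7%) and 37.4% in DTEC against DTC (51.9%). In KO they made up 78.8% (64.1% with TMM). Upper-quartile scaling gave 65.0%, 59.1% and 38.7% in the drug comparisons. DTC replicate 1 stood apart most, with a median absolute log2 deviation of 0.348 from its group mates against 0.0886 for the closest library. Mitochondrial genes took 2.504% to 2.77% of the counts in untreated WT, 2.59% to 2.78% in KO, 4.43% to 5.41% in DTC and 1.82% to 2.38% in DTEC. All 6 epithelial markers listed were present, with summed levels of 10794 to 11395 CPM in untreated WT, 11479 to 12314 in KO, 6293 to 7277 in DTC and 9276 to 12151 in DTEC. In DTC 4 of the 6 were called lower (median log2 fold change -0.57). Markers of leukocytes (PTPRC, CD3E) and fibroblasts (COL1A2, DCN, PDGFRA) were at or near 0, apart from CD68 at 25.9 to 53.4 CPM and COL1A1, which ran from 7.79 to 8.83 CPM in untreated WT, from 13.1 to 14.8 in KO, from 54.2 to 56.8 in DTC and from 10.9 to 14.0 in DTEC. The summed endothelial markers ran from 58.5 to 61.4 CPM in untreated WT, from 75.7 to 77.2 in KO, from 41.9 to 49.5 in DTC and from 122 to 142 in DTEC, mainly PECAM1 and CDH5, with VWF at most 1.85. The part of these markers and of the mitochondrial share in the changes of the repair genes was not tested.

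TDP1, the targeted gene, stood at 28.1, 25.1 and 25.8 CPM in the 3 untreated WT libraries and at 10.1, 11.3 and 10.98 CPM in KO. Its transcript level in KO was thus 41.0% of the untreated WT mean (log2 fold change -1.29, SE 0.11, edgeR adjusted p = 1.3e-05), with no overlap. In DTC TDP1 was at 53.0% of untreated WT, and in DTEC at 101%.

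After 7 days in erlotinib most of the set was lower. Of the 9 genes, 7 fell in DTC against untreated WT, 0 rose and 2 (POLB and APTX) did not pass the test, where 33.3% of all tested genes fell. The median log2 fold change of the 9 was -0.76, beside 0.06 over all tested genes. The 7 that fell were LIG3, PARP1, FEN1, LIG1, APEX1, XRCC1 and PARP2, and in each of them the 3 DTC libraries lay below all 3 untreated WT libraries, where 68.9% of all tested genes had no overlap in either direction. With total-count or upper-quartile scaling 6 fell (all but PARP2) and POLB rose, and without DTC replicate 1 the 7 fell and POLB rose. In these bulk samples, fewer cells of a type and less RNA per cell cannot be told apart. The steps of the pathway differed in depth of change, from LIG3 at 34.3% of its untreated WT mean to POLB at 122%.

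**Figure D1:**
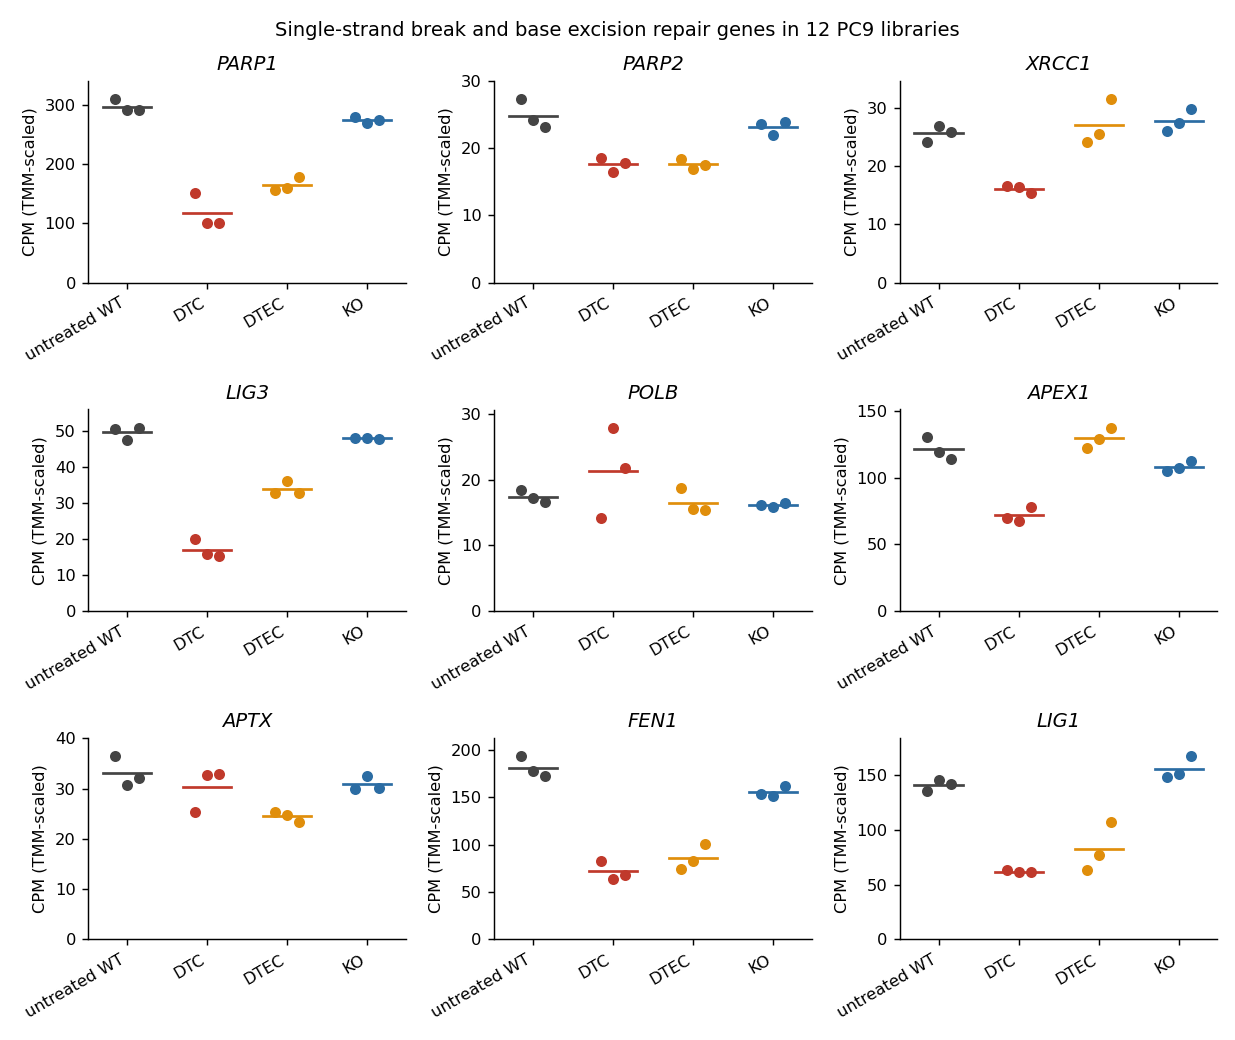
Level of each of the 9 repair genes in CPM (y axis, TMM-scaled, starting at 0) in each of the 12 libraries, by group on the x axis; points are libraries and bars are means of 3. PARP1, FEN1 and LIG1 sit lower in all DTC and DTEC libraries than in untreated WT, XRCC1 and APEX1 are lowest in DTC, and POLB has its widest spread in DTC (14.2 to 27.9 CPM).

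Among the break sensors, PARP1 makes most of the poly(ADP-ribose) of a cell. PARP1 stood at 309.9, 291 and 291 CPM in untreated WT, at 152, 101 and 101 in DTC, at 156, 159 and 179 in DTEC and at 279.8, 270.1 and 275 in KO. Every drug-treated library was below every untreated one, DTC replicate 1 was the highest of its group, and the 3 DTEC libraries lay above the 3 DTC libraries. The log2 fold change was -1.33 (SE 0.14, edgeR adjusted p = 9.49e-07) in DTC, -1.51 without DTC replicate 1, and -0.85 (SE 0.14, adjusted p = 0.00013) in DTEC. The rise from DTC to DTEC was 0.48 (SE 0.14, adjusted p = 0.00784), a call that was lost with total-count scaling (adjusted p = 0.0746), with upper-quartile scaling (adjusted p = 0.0515), in a fit of those 6 libraries alone (adjusted p = 0.0591) and without DTC replicate 2, DTC replicate 3 or DTEC replicate 3 (adjusted p = 0.0596, 0.0739 and 0.0583).

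PARP2, the second break-activated polymerase, is the less abundant of the pair. Its levels were 27.3, 24.2 and 23.2 CPM in untreated WT, 18.5, 16.5 and 17.9 in DTC, 18.4, 17.0 and 17.5 in DTEC and 23.7, 22.0 and 23.9 in KO. The drug-treated libraries of both times overlapped and lay below all untreated libraries. PARP2 fell by 0.50 on the log2 scale in both (SE 0.10, edgeR adjusted p = 0.000465 in DTC and 0.000759 in DTEC), and the ratio of DTEC to DTC was 1.0004 (95% interval 0.862 to 1.16). The fall in DTC was not called with total-count scaling (-0.14, adjusted p = 0.198) or upper-quartile scaling (-0.21, adjusted p = 0.0646).

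XRCC1, the scaffold, stood at 24.2, 27.0 and 25.9 CPM in untreated WT, at 16.6, 16.5 and 15.4 in DTC, at 24.2, 25.6 and 31.6 in DTEC and at 26.1, 27.4 and 29.9 in KO. The DTC libraries were separated from all 9 others, and the DTEC libraries overlapped the untreated ones. XRCC1 changed by -0.67 on the log2 scale (SE 0.11, edgeR adjusted p = 0.00012) in DTC and 0.75 (SE 0.11, adjusted p = 7.69e-05) from DTC to DTEC. In DTEC against untreated WT it was 0.08 (adjusted p = 0.584), a ratio of 1.06 with a 95% interval of 0.894 to 1.25. Total-count scaling reduced the fall of XRCC1 in DTC to -0.31 (adjusted p = 0.0231).

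LIG3, the ligase that XRCC1 binds and the ligase of mitochondria, had the largest fall of the 9 in DTC. Its levels were 50.6, 47.3 and 50.8 CPM in untreated WT, 20.0, 15.7 and 15.2 in DTC, 32.6, 35.9 and 32.8 in DTEC and 48.0, 47.9 and 47.7 in KO. DTC lay lowest, DTEC between and untreated WT highest, without overlap between any pair of these 3 groups. Its log2 fold change was -1.54 (SE 0.11, edgeR adjusted p = 2.13e-08) in DTC, 0.99 (SE 0.11, adjusted p = 3.87e-06) from DTC to DTEC and -0.55 (SE 0.11, adjusted p = 0.000581) in DTEC against untreated WT.

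APEX1, the abasic site endonuclease, had, like XRCC1, its lowest levels in DTC. It stood at 130.3, 119.6 and 114 CPM in untreated WT, at 69.8, 67.5 and 78.1 in DTC, at 122, 129 and 137 in DTEC and at 105, 107 and 113 in KO. The DTC libraries were below all others, and DTEC overlapped untreated WT. APEX1 changed by -0.76 on the log2 scale (SE 0.09, edgeR adjusted p = 6.48e-06) in DTC and 0.85 (SE 0.09, adjusted p = 4.43e-06) from DTC to DTEC. In DTEC against untreated WT the ratio was 1.07 (95% interval 0.928 to 1.23, adjusted p = 0.421), and with total-count scaling alone APEX1 was called higher there (0.26, adjusted p = 0.0284). The same scaling reduced the fall of APEX1 in DTC to -0.40 (adjusted p = 0.00161).

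POLB (ENSG00000070501, plus strand of chromosome 8 at 42338454 to 42371808), the short-patch polymerase, was the member with a fold change above 0 in DTC. Its levels were 18.5, 17.3 and 16.6 CPM in untreated WT, 14.2, 27.9 and 21.8 in DTC, 18.7, 15.5 and 15.3 in DTEC and 16.1, 15.9 and 16.5 in KO. DTC replicate 1 was the lowest of the 12 libraries and the other 2 DTC libraries were the highest. The log2 fold change in DTC was 0.29 (SE 0.18, edgeR adjusted p = 0.171), a ratio of 1.22 with a 95% interval of 0.934 to 1.60. Without DTC replicate 1 POLB was called higher in DTC (0.56, adjusted p = 0.000521) and lower in DTEC than in DTC (-0.61, adjusted p = 0.000303). Without DTC replicate 2 these values were 0.10 (adjusted p = 0.586) and -0.16 (adjusted p = 0.419). POLB was also called higher in DTC with total-count scaling (0.65, adjusted p = 0.00576) and upper-quartile scaling (0.58, adjusted p = 0.0139). In DTEC against untreated WT the log2 fold change was -0.08 (adjusted p = 0.745).

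APTX, which resets abortive ligation ends, was called lower at 28 days but not at 7. It stood at 36.4, 30.7 and 32.1 CPM in untreated WT, at 25.4, 32.7 and 33.0 in DTC, at 25.4, 24.8 and 23.4 in DTEC and at 29.98, 32.5 and 30.2 in KO. DTC replicate 1 was the only DTC library below the untreated range, whereas all 3 DTEC libraries were below it. The log2 fold change was -0.13 (edgeR adjusted p = 0.343) in DTC and -0.43 (SE 0.11, adjusted p = 0.00568) in DTEC, where total-count scaling gave -0.26 (adjusted p = 0.0651). DTEC was lower than DTC by -0.31 (SE 0.11, adjusted p = 0.0343), a difference that was lost in 5 of 13 alternative settings.

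FEN1, the flap endonuclease, stood at 193, 178 and 172 CPM in untreated WT, at 83.0, 64.0 and 68.4 in DTC, at 74.1, 82.8 and 100.3 in DTEC and at 153, 152 and 162 in KO. Drug-treated libraries of both times lay below all untreated libraries, and DTC and DTEC overlapped. FEN1 changed by -1.33 on the log2 scale (SE 0.12, edgeR adjusted p = 3.45e-07) in DTC and -1.08 (SE 0.12, adjusted p = 6.74e-06) in DTEC, the largest fall of the 9 at 28 days. DTEC differed from DTC by 0.26 (adjusted p = 0.0927), by 0.35 without DTC replicate 1 (adjusted p = 0.014) and by 0.0896 without DTEC replicate 3 (adjusted p = 0.569).

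LIG1, the replicative and long-patch ligase, stood at 136, 146 and 142 CPM in untreated WT, at 63.3, 61.1 and 61.2 in DTC, at 63.0, 77.0 and 107 in DTEC and at 148, 150.3 and 167 in KO. The DTC libraries were nearly equal, whereas the DTEC libraries ran from the DTC level to 107 CPM in replicate 3, still below untreated WT. The log2 fold change was -1.19 (SE 0.15, edgeR adjusted p = 5.93e-06) in DTC and -0.78 (SE 0.15, adjusted p = 0.000488) in DTEC. The difference of DTEC from DTC, 0.41 (SE 0.15, adjusted p = 0.0272), was lost in 8 of 13 alternative settings, and without DTEC replicate 3 it was 0.14 (adjusted p = 0.294).

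At 28 days 6 of the 9 genes were lower than in untreated WT, 0 were higher and 3 (XRCC1, APEX1 and POLB) did not pass the test, where 26.3% of all tested genes were lower. The median log2 fold change of the 9 was -0.50, beside 0.02 over all tested genes. With total-count scaling 5 were lower and APEX1 was higher. From DTC to DTEC 5 of the 9 rose (LIG3, APEX1, XRCC1, PARP1 and LIG1), where 28.8% of all tested genes rose, and 1 fell (APTX), where 26.6% fell. With total-count or upper-quartile scaling 3 rose (LIG3, APEX1 and XRCC1) and 2 fell (APTX and POLB). LIG3, APEX1 and XRCC1 were called higher in DTEC than in DTC in all 13 alternative settings. Both drug comparisons against untreated WT share those 3 libraries, and the 2 that involve DTC share the DTC libraries.

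**Figure D2:**
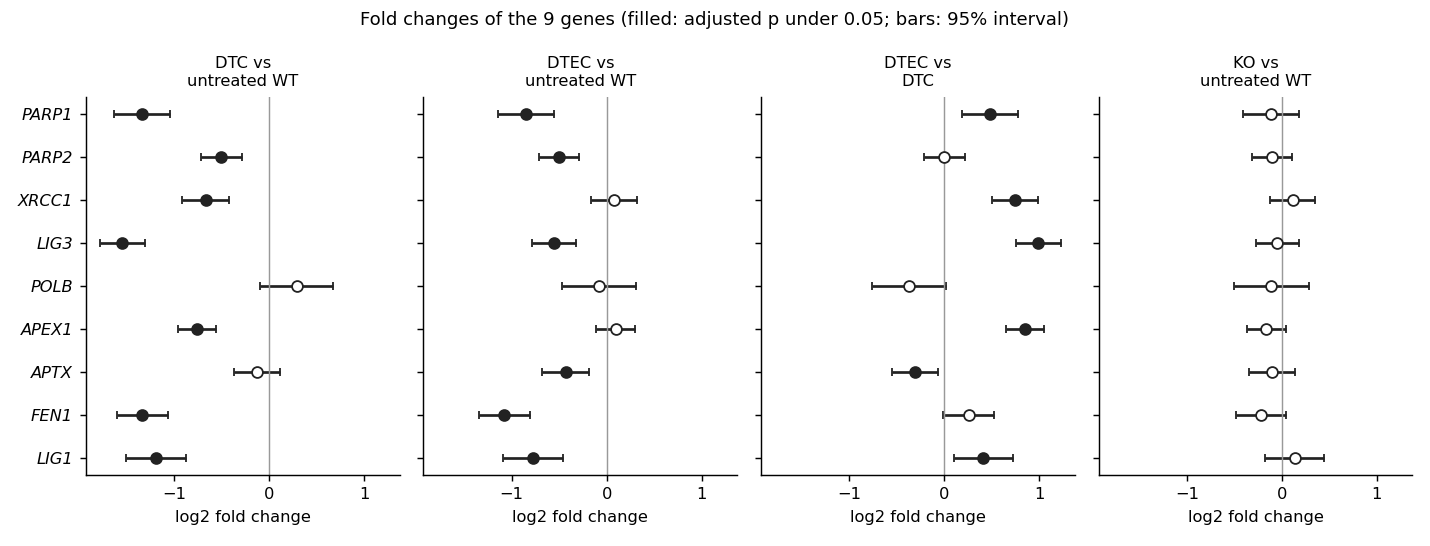
Log2 fold change of each gene in the 4 comparisons, with 95% intervals as bars; filled points had an adjusted p under 0.05. In DTC against untreated WT 7 points are filled and below 0, in DTEC against untreated WT 6 are, and in KO against untreated WT all 9 are open and between -0.22 and 0.14.

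In the TDP1 knockout line without drug, no member of the set passed the test. None of the 9 was called by edgeR (0 of 9, with 0 at an unadjusted p under 0.05) or by DESeq2 (0 of 9), where 4.31% of all tested genes were called by edgeR. The log2 fold changes ran from -0.22 for FEN1 (edgeR adjusted p = 0.406) to 0.14 for LIG1 (adjusted p = 0.697), with a median of -0.10 beside -0.01 over all tested genes. The widest 95% intervals of the ratio of KO to untreated WT were those of POLB, 0.706 to 1.21, and LIG1, 0.886 to 1.36. In 5 of the 9 genes (APEX1, FEN1, LIG1, PARP1 and POLB) the 3 KO libraries did not overlap the 3 untreated WT libraries, as in 35.7% of all tested genes. In a fit of the 6 untreated libraries alone, whose spread between replicates was smaller (a biological coefficient of variation of 8.49% against 14.6% over all 12), FEN1 was called lower in KO (-0.20, adjusted p = 0.0324), beside 2611 genes called in that fit. The other 8 genes were not called there.

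Ratios of genes with related roles do not depend on how libraries are scaled, so 3 of them were taken within each library. With 3 libraries against 3 the smallest p of the exact permutation test was 0.1, and the adjustment was over 12 tests. PARP1 counts were 11.97 ± 0.595 (SD, n = 3) times those of PARP2 in untreated WT, 6.66 ± 1.35 times in DTC, 9.37 ± 0.853 times in DTEC and 11.9 ± 0.408 times in KO. No DTC or DTEC library reached the untreated range, and DTC and DTEC did not overlap. The log2 ratio differed from untreated WT by -0.86 in DTC and by -0.36 in DTEC (two-sided exact permutation p = 0.1, adjusted 0.171, for both).

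FEN1 counts were 10.4 ± 0.0889 (SD, n = 3) times those of POLB in untreated WT, 3.77 ± 1.87 times in DTC, 5.28 ± 1.295 times in DTEC and 9.64 ± 0.182 times in KO. Counts of the long-patch nuclease stayed above those of the short-patch polymerase in all 6 drug-treated libraries, but by less than in any untreated WT library. The log2 ratio differed from untreated WT by -1.57 in DTC, by -1.004 in DTEC and by -0.11 in KO, each without overlap (two-sided exact permutation p = 0.1, adjusted 0.171). LIG1 counts were 2.85 ± 0.208 times those of LIG3 in untreated WT, 3.68 ± 0.460 times in DTC, 2.44 ± 0.709 times in DTEC and 3.24 ± 0.228 times in KO. The log2 ratio of these ligases was higher in DTC by 0.36 (two-sided exact permutation p = 0.1, adjusted 0.171), without overlap. In DTEC it differed from untreated WT by -0.26 (exact permutation p = 0.4), with DTEC replicate 3 the highest of its group. That difference was -0.48 without DTEC replicate 3 (exact permutation p = 0.1) and -0.11 without DTEC replicate 1 (exact permutation p = 0.8).

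**Figure D3:**
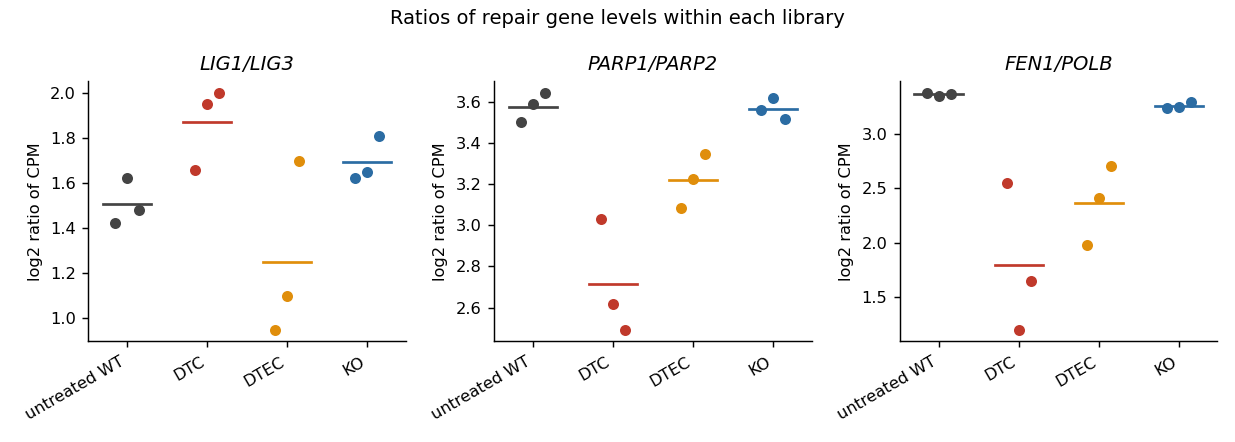
Log2 ratio of 3 gene pairs (y axis, not starting at 0) within each of the 12 libraries by group; points are libraries and bars are means of 3. FEN1/POLB is between 3.36 and 3.38 in untreated WT and reaches 1.20 in the lowest DTC library, and PARP1/PARP2 is lower in every drug-treated library than in every untreated one.

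Between genes, levels were compared per length, as CPM per kilobase of the longest coding transcript of each gene. In untreated WT the order was APEX1 at 81.7 ± 5.61 (SD, n = 3), FEN1 at 78.8 ± 4.79, PARP1 at 75.1 ± 2.73, LIG1 at 35.7 ± 1.296, APTX at 15.3 ± 1.37, POLB at 13.1 ± 0.714, PARP2 at 12.6 ± 1.08, XRCC1 at 9.18 ± 0.513 and LIG3 at 5.90 ± 0.235. The highest 3 overlapped in their libraries, as did POLB and PARP2. In DTC APEX1 was highest at 48.4 ± 3.77 CPM per kilobase, without overlap with FEN1 at 31.3 ± 4.33 or PARP1 at 29.8 ± 7.39. POLB moved to the fourth place in DTC at 16.0 ± 5.19, overlapping LIG1 at 15.7 ± 0.314 and APTX at 14.0 ± 1.98. Per kilobase of the shortest coding transcript, POLB was at 27.1 CPM in DTC, below APTX at 28.4. In DTEC APEX1 stood at 87.2 ± 5.15, above PARP1 at 41.6 ± 3.14 and FEN1 at 37.3 ± 5.83, whose libraries overlapped. LIG3 was last in every group on this scale, at 2.03 ± 0.314 in DTC. Its longest transcript is 8400 bp and its shortest 3055 bp, and with the shortest coding transcript of each gene LIG3 was at 16.2 CPM per kilobase in untreated WT, above XRCC1 at 12.9. The shortest coding transcript of PARP1 in the annotation is 477 bp, and on that scale PARP1 was highest in every group, at 623 CPM per kilobase in untreated WT, 247 in DTC and 346 in DTEC, with APEX1 at 137, 80.8 and 146. The order of the highest genes and the fourth place of POLB in DTC therefore hold only for the longest transcripts.

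**Figure D4:**
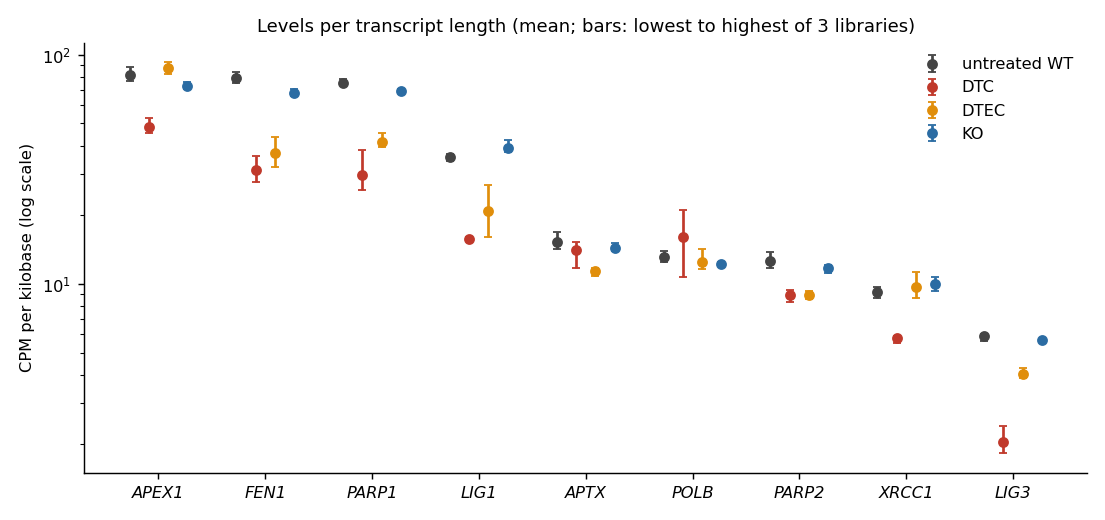
Level of each gene in CPM per kilobase of its longest coding transcript (log axis) in the 4 groups; points are means and bars run from the lowest to the highest of 3 libraries. APEX1 in DTEC overlaps its untreated level while FEN1 and PARP1, which overlap it in untreated WT, are lower in both drug groups.

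The other genes of the pathway were taken from 4 role lists. Of all tested genes, 34% rose and 33.3% fell in DTC, and 26% rose and 26.3% fell in DTEC. From DTC to DTEC 28.8% of all tested genes rose and 26.6% fell. Long-patch synthesis, covered by PCNA, the RFC clamp loader and the replicative polymerases, had 11 tested genes, of which 10 fell and 1 rose in DTC (median log2 fold change -1.04, beside 0.06 over all genes) and 9 fell in DTEC (median -0.86, beside 0.02). POLD2, an accessory subunit of polymerase delta, fell by 1.49 on the log2 scale in DTC (edgeR adjusted p = 3.62e-08), RFC5, a clamp loader subunit, by 1.32 (adjusted p = 6.78e-09) and POLD1, the catalytic subunit, by 1.22 (adjusted p = 0.000905). In DTEC RFC5 fell by 1.06 (adjusted p = 1.89e-07), RFC3 by 1.03 (adjusted p = 1.21e-06) and POLD1 by 1.03 (adjusted p = 0.0044). The gene that rose in DTC was POLD4, the smallest subunit of polymerase delta, at 1.12, named after its value was seen. POLD4 ran from 20.4 to 39.7 CPM in DTC and from 13.6 to 17.6 in untreated WT, with whole deposited counts in 0 of 12 libraries. Over 13 alternative settings 8 to 11 genes of this list were called in DTC. From DTC to DTEC 5 of the 11 rose and 1, POLD4, fell (-0.69, adjusted p = 0.02). The call of POLD4 was lost in the fit of those 6 libraries alone (adjusted p = 0.0509) and without DTC replicate 2, DTC replicate 3 or DTEC replicate 1 (adjusted p = 0.0761, 0.0718 and 0.0678), and the calls in this list numbered 2 to 7 with a library left out. POLD3 rose by 0.74 there (adjusted p = 1.62e-05) and POLD2 by 0.66 (adjusted p = 0.000166).

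Of 11 DNA glycosylases, which start base excision repair, 2 rose and 4 fell in DTC (median -0.07), and 2 rose and 4 fell in DTEC (median -0.13). From DTC to DTEC 2 rose and 3 fell. Of all tested genes, 34% rose and 33.3% fell in DTC, and 26% rose and 26.3% fell in DTEC. From DTC to DTEC 28.8% of all tested genes rose and 26.6% fell. NTHL1, which removes oxidized pyrimidines, fell by 1.78 on the log2 scale in DTC (edgeR adjusted p = 5.2e-05) and by 1.14 in DTEC (adjusted p = 0.00231). NEIL3, a glycosylase of dividing cells, fell by 1.16 in DTC (adjusted p = 3.13e-06) and by 1.41 in DTEC (adjusted p = 1.44e-06). NEIL1 rose by 2.83 in DTC (adjusted p = 0.000464) and by 2.42 in DTEC (adjusted p = 0.00257), from a low base of 4, 1 and 9 counts in the untreated WT libraries to 19, 38 and 45 in DTC. From DTC to DTEC TDG, which acts on G:T mismatches, fell by 0.92 (adjusted p = 1.42e-05), OGG1, the 8-oxoguanine glycosylase, fell by 0.76 (adjusted p = 7.36e-05) and UNG, the uracil glycosylase, rose by 0.75 (adjusted p = 1.07e-05).

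Of 6 genes for end processing, 2 rose and 2 fell in DTC (median 0.02), and 2 rose and 1 fell in DTEC (median 0.03). From DTC to DTEC 3 rose and 1 fell, and the calls there numbered 2 to 5 over 13 alternative settings. Of all tested genes, 34% rose and 33.3% fell in DTC, and 26% rose and 26.3% fell in DTEC. From DTC to DTEC 28.8% of all tested genes rose and 26.6% fell. APLF, a poly(ADP-ribose)-binding end-joining factor, rose from a mean of 0.532 CPM in untreated WT to 3.07 in DTC (log2 fold change 2.51, edgeR adjusted p = 3.49e-06) and was at 1.405 CPM in DTEC (1.38, adjusted p = 0.0015). APEX2, the other abasic endonuclease, fell by 0.63 in DTC (adjusted p = 3.8e-05), and by 0.27 with total-count scaling (adjusted p = 0.0158). In DTEC APEX2 fell by 0.29 (adjusted p = 0.0188), a call lost in 7 of 13 alternative settings. Its rise from DTC to DTEC (0.34, adjusted p = 0.00703) was lost in 5 of the 13. From DTC to DTEC APLF fell by 1.13 (adjusted p = 0.00279) and TDP1 rose by 0.93 (adjusted p = 6.31e-06). POLL, a gap-filling polymerase related to POLB, rose by 0.52 in DTEC (adjusted p = 0.00167). Of 6 genes that handle ADP-ribose, 1 rose and 3 fell in DTC (median -0.35) and 2 rose and 2 fell in DTEC (median 0.02), beside the same shares of all tested genes. From DTC to DTEC 3 of them rose and 0 fell. CHD1L, a remodeler recruited by poly(ADP-ribose), fell by 1.28 in DTC (adjusted p = 9.53e-08) and by 0.90 in DTEC (adjusted p = 7.15e-06), and ADPRS, a serine ADP-ribosylhydrolase, by 0.62 (adjusted p = 0.000219) and 0.63 (adjusted p = 0.000303). Total-count scaling reduced the fall of ADPRS in DTC to -0.26 (adjusted p = 0.0465). The rise of CHD1L from DTC to DTEC (0.38, adjusted p = 0.00697) was lost in 4 of 13 alternative settings. PARG, which degrades the chains, fell by 0.47 in DTC (adjusted p = 0.00123), a call lost with total-count (adjusted p = 0.347) and upper-quartile scaling (adjusted p = 0.113), and rose by 0.51 from DTC to DTEC (adjusted p = 0.00101). OARD1, which removes terminal ADP-ribose, also rose by 0.51 there (adjusted p = 0.00114). PARP3, another break-activated family member, rose by 0.49 in DTEC (adjusted p = 0.00575).

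In KO the single gene called among these 34 pathway genes was TDP1 itself, in the edgeR fit and in DESeq2. The fit of the 6 untreated libraries alone called 1 further gene, from the ADP-ribose list. At an unadjusted p under 0.05 edgeR gave 1 of 11 glycosylases, 1 of 6 ADP-ribose genes, 0 of 11 long-patch genes and 1 of 6 end-processing genes, which was TDP1.

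Genes of S phase and mitosis fell in the same comparisons as part of the 9 repair genes, of which 7 fell in DTC and 6 in DTEC. XRCC1 and APEX1 overlapped untreated WT in DTEC. All 12 S phase genes listed (among them the MCM helicase subunits, TYMS and RRM2) fell in DTC and in DTEC, with medians of -1.33 and -0.92, and all 12 mitosis genes (among them MKI67, TOP2A and CDK1) fell in both, with medians of -1.95 and -1.12. Summed over the S phase list, untreated WT libraries held 2373 to 2415 CPM, those of KO 2266 to 2335, those of DTC 777 to 969 and those of DTEC 1124 to 1388. Over the mitosis list, untreated WT libraries held 2951 to 3177 CPM, those of KO 3039 to 3094, those of DTC 785 to 809 and those of DTEC 1528 to 1535. Over the 9 repair genes, untreated WT libraries held 867 to 926 CPM, those of KO 825 to 864, those of DTC 403 to 462 and those of DTEC 535 to 644. From DTC to DTEC 6 S phase genes rose and 2 fell, and 11 mitosis genes rose and 1 fell. Of all tested genes, 33.3% fell in DTC and 26.3% in DTEC, and from DTC to DTEC 28.8% rose and 26.6% fell. The part of proliferation in the changes of the repair genes was not tested.

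**Figure D5:**
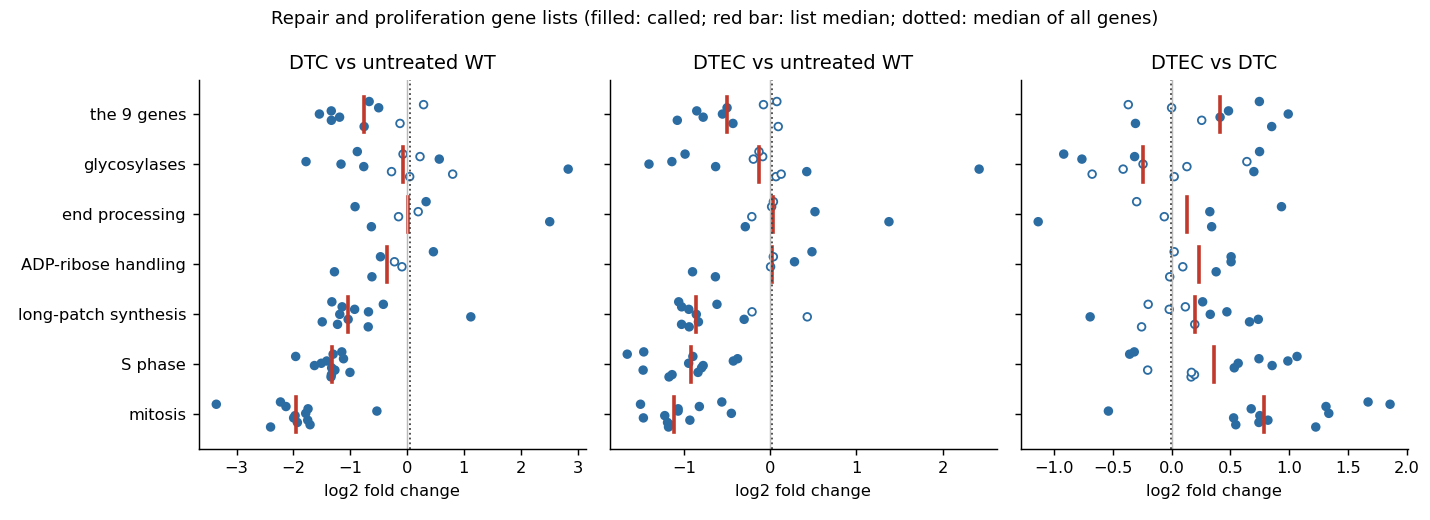
Log2 fold changes (x axis) of the 9 repair genes, 4 further repair lists and the S phase and mitosis lists in the 3 drug comparisons; each point is a gene, filled where called, the red bar is the list median and the dotted line the median of all genes. The 9 genes have a median of -0.76 in DTC, between the glycosylases at -0.07 and the S phase genes at -1.33; with total-count scaling PARP2 is not called lower in DTC.

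The profile of each gene over the 12 libraries was compared with those of 9713 other expressed genes by the root mean square difference of centred log2 CPM, where 0 is identity. PARP1 was nearest to MTHFD1 (0.07), IPO11 (0.07) and FTSJ3 (0.08), and FEN1 to ZWINT (0.06), AFAP1L1 (0.07) and CHAF1A (0.09). LIG1 was nearest to PELP1 (0.09), POLE (0.11) and MCM2 (0.11). LIG3 was nearest to SRSF1 (0.07), CTCF (0.07) and TUBGCP3 (0.07), and PARP2 to ANAPC5 (0.06), LSG1 (0.06) and PSMD4 (0.07). XRCC1 was nearest to KAT8 (0.07), PRKCSH (0.08) and KIAA1522 (0.09), and APEX1 to RXYLT1 (0.08), ZNF16 (0.08) and VASP (0.08). POLB was nearest to SNX3 (0.06), COMMD7 (0.08) and CSAG1 (0.08), and APTX to PRKAG2 (0.06), UBE2A (0.07) and TRAPPC3 (0.08). Among the 9 genes themselves the closest pairs were FEN1 with PARP1 (0.13), APEX1 with XRCC1 (0.16) and FEN1 with LIG1 (0.17), and the farthest was LIG3 with POLB (0.80). These distances describe 12 libraries that share their groups and carry no test.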

How the data were processed

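RNA of 12 PC9 libraries (3 per group) was measured by stranded mRNA sequencing with 101 bp read pairs, per the labels' protocols. The authors deposited RSEM expected counts per gene, not scaled to depth, and the submitters' processing notes name RSEM 1.3.1, Bowtie2 2.5.2, DESeq2 1.40.2 and GRCh38; the counting annotation is not given in the sources used here. The deposited estimated counts were rounded to whole numbers and fitted in R 4.3.3 with edgeR 4.0.16: filterByExpr by group (17115 genes kept), TMM scaling, 1 mean per group over all 12 libraries, robust quasi-likelihood tests and Benjamini-Hochberg adjustment over all tested genes. The code of the fit was tried on simulated counts in which few genes changed. That trial does not bear on scaling where most genes change, as in the drug comparisons. Symbols, spans and transcript lengths came from GENCODE 29, promoters from RefSeq. Intervals cover the spread between cultures within a line, split from a common flask, and not the spread between lines. Reads carried no molecular identifiers.

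All 9 genes were named throughout; of each role list the rule named at most 3 called genes, those furthest from 0 on the log2 scale. The genes and lists were chosen with earlier results of these data known, so they are not independent evidence of a direction. Likeness used genes with a mean of at least 10 CPM. Ratios used log2 CPM with a prior count of 2 and two-sided exact permutation tests. Alternatives were other scalings, no count filter, DESeq2 1.42.0, the compared libraries fitted alone, a replicate block and each library left out. Deposited values were whole in all 12 libraries for PARP1, PARP2, XRCC1, APEX1 and FEN1. They were whole in 8 for APTX, 6 for POLB, 3 for LIG1 and 0 for LIG3, genes whose reads were partly shared out among features. Protein sequences were not analysed here, nor was a promoter of POLB.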

Additional observations from a re-analysis of the deposited data

How the results depend on the processing

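Of 36 fold changes of the 9 genes in 4 comparisons, each recomputed under 13 alternatives, 21 kept their direction and their side of the threshold throughout, 5 changed sign, 5 lost a call and 5 gained one under at least 1 alternative. The 9 genes gave 6 calls in DTEC against DTC, but 3 when those 6 libraries were fitted alone and 3 to 7 when a library was left out. In KO against untreated WT the 738 genes called became 1147 with no count filter, 1148 with DESeq2, 2611 in the fit of the 6 libraries alone (which called 1 of the 9 genes) and 334 to 441 with a library left out. The fit alone used fewer libraries with a smaller spread; the cause of the other shifts was not tested. Changes of sign concerned fold changes that were not called. APTX in DTC was 0.23 with total counts, 0.17 with upper quartile and -0.14 to 0.034 with a library left out, reversing without DTC replicate 1. POLB in DTEC was 0.091 with total counts and 0.037 with upper quartile. PARP2 in DTEC against DTC was -0.026 with DESeq2's size factors, -0.19 with total counts, -0.17 with upper quartile, -0.025 with DESeq2, -0.027 in the libraries alone and -0.083 to 0.012 with a library left out. LIG3 in KO was 0.018 with total counts. With a library left out, TDP1 in DTEC was -0.0014 to 0.077, XRCC1 in DTEC -0.039 to 0.18, and the log2 ratio of PARP1 to PARP2 in KO -0.0508 to 0.0205.

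Replicate numbers are shared across groups but are not said to link cultures. Same-numbered libraries deviated together only weakly (correlations of -0.013 to 0.179 over the 4 comparisons, not over 0.1 in every pair). Whether the numbers pair cultures is therefore not known. A fit with the replicate block gave 7, 6, 6 and 0 calls among the 9 genes in DTC, DTEC, DTEC against DTC and KO, as without it, and 887 genes called in KO. In KO all 3 libraries correlated best with the untreated library of their own number, as did 2 of 3 in DTC and 1 of 3 in DTEC. Against DTC, 2 of 3 DTEC libraries correlated best with their own number. This is a hint from the data and not the design.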
